A study of Mus musculus with 80 samples.

Results

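The mitochondrial beta-oxidation enzymes described here are 10 genes, Cpt1a, Cpt2, Acadm, Acadl, Acadvl, Hadha, Hadhb, Eci1, Decr1 and Etfdh, out of 78275 genes in the deposited count table of a mouse liver fasting time course. Their rows were taken by name, as those whose gene symbol is one of these 10, a rule that uses no measured value. The 10 names themselves were chosen with earlier results of these data known. All 10 were among the 21187 genes with enough counts to be tested. The 80 libraries came from 80 C57BL/6J mice with no transgene or deletion named, bought at 8 to 12 weeks of age, kept for 10 days in equal light and dark and moved to constant darkness on day 11. In 40 control mice food stayed available throughout, and from 40 fasted mice it was taken away at circadian time 10 (CT10; CT0 is the start of the subjective day). Livers were taken at 10 times, every 4 h from CT8 to CT44, from 2 males and 2 females per treatment and time, so the mice labelled fasted at CT8 had not yet lost their food and those at CT44 had gone 34 h without it. A piece of one liver lobe gave 1 poly(A) RNA library per mouse.

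Long-chain fatty acids cross into the mitochondrion as carnitine esters and are then shortened by repeated rounds of oxidation, hydration, oxidation and thiolysis, each round releasing acetyl-CoA. CPT1A, on the outer membrane, makes the carnitine ester and is inhibited by malonyl-CoA, and CPT2, on the inner membrane, turns it back into acyl-CoA. The acyl-CoA dehydrogenases ACADVL, ACADL and ACADM take chains of decreasing length and pass their electrons through the electron transfer flavoprotein to its dehydrogenase ETFDH and on to ubiquinone. HADHA and HADHB form the trifunctional protein, which carries out the remaining steps on long chains, and ECI1 and DECR1 move or remove the double bonds of unsaturated chains. In liver the acetyl-CoA formed feeds ketone body synthesis, and the nuclear receptor PPAR alpha is the best known transcriptional regulator of these genes during a fast.

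The libraries held 25534901 to 59927771 gene counts. Treatment and sex were taken from the sample titles, since another label field gave a different sex for 40 libraries and a different treatment for 40. Xist, the RNA of the inactive X, exceeded the Y-linked Ddx3y in 40 of 40 libraries titled female, and the reverse held in 40 of 40 titled male. Over CT12 to CT44 Fgf21, a hormone of the fasted liver, had a median of 8.11 CPM (counts scaled to the same total in each library) in fasted and 0.333 in control libraries, Pdk4, a pyruvate dehydrogenase kinase, of 42.0 against 14.1, and Srebf1, a lipogenic regulator that falls without food, of 42.5 against 423. The hepatocyte markers Alb, Apoa1, Ttr, Hnf4a and Serpina1c together held 55560 to 119993 CPM in every library. Summed pancreas markers ran from 0 to 4.77 CPM (median 0) and adipocyte markers from 0 to 10.7 (median 0.134). Lymphocyte markers ran from 8.15 to 158 CPM, with a median of 16.4. One control library at CT8, female 2, had 31.3% of its counts in the ribosomal RNA gene Rn18s-rs5, against a median of 0.101%, and all 10 enzymes were lower in it than in the other 3 libraries of its group.

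The 3 stretches of DNA printed next belong to the genes that the values below turn on: the sequence before Cpt1a, the gene with the largest change, the sequence before Acadm, the next largest, and the stretch that Hadha and Hadhb share. Hadha and Hadhb lie head to head on chromosome 5, and their RefSeq start sites, at 30154980 on the minus strand and 30155253 on the plus strand (GRCm38.p6), leave 272 bases between them. The sequences were read from a RefSeq promoter table (250 bases before and 50 after a start), which held 9 of the 10 genes, all but Decr1. Capitals mark the GC box GGGCGG on either strand (written CCGCCC where it lies on the other strand), the motif of SP-family factors.
Cpt1a, chr19:3323051-3323300, plus strand: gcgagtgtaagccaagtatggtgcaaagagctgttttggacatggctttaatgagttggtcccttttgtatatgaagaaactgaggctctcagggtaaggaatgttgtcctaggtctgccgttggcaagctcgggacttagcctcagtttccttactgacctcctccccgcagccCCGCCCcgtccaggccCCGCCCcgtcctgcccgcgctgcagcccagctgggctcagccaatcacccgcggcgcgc
Acadm, chr3:153944644-153944893, minus strand: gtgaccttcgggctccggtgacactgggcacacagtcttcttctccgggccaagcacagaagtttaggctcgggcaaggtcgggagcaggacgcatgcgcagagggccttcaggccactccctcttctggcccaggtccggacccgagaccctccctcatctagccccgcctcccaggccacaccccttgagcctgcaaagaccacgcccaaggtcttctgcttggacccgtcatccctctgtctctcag
Hadha and Hadhb, shared stretch, chr5:30155003-30155230, plus strand: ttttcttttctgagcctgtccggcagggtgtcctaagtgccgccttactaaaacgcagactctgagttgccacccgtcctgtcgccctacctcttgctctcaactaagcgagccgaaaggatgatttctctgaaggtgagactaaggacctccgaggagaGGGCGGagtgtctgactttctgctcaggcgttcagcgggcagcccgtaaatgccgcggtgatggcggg

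In the full 300-base windows the GC box occurred in 7 of the 9 genes and was absent from Acadm and Acadvl, and it occurred in 35.7% of 32851 windows of this length in the table. Cpt1a and Cpt2 each held 3 matches, Acadl and Hadhb 4, and Hadha, Eci1 and Etfdh 1. None of the 9 windows held the direct repeat made of 2 copies of AGGNCA with 1 base between them (0.381% of all windows), the letters TCAAGGTCA (0.423%), the E-box CACGTG (7.15%) or TGACGTCA (1.79%), each searched on both strands. These are matches of letters in a short window only.

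The first comparison asked how the enzymes differed between fasted and control liver over CT12 to CT44. All 10 rose, by 1.51-fold (Acadvl) to 2.75-fold (Cpt1a), and none fell, where 29.5% of all genes tested rose (edgeR quasi-likelihood test, adjusted p under 0.05, 36 fasted against 36 control libraries). Their median log2 change was 0.83, beside -0.02 over all genes tested. These are amounts of RNA in whole liver, in which fewer cells of a type and less RNA per cell cannot be told apart. Beside them, the summed hepatocyte markers ranged from 64920 to 119993 CPM in fasted and from 55560 to 103274 in control libraries, the Kupffer cell markers from 118 to 390.3 against 182 to 541, and the cholangiocyte markers from 6.78 to 50.3 against 24.6 to 66.0, and their part in the result was not tested.

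Cpt1a (chr19:3322334-3385733, plus strand, GRCm38) rose the most of the 10. Its control libraries ran from 205 to 701 CPM with a median of 347, and its fasted libraries from 646 to 1412 with a median of 1102. Of the 36 fasted libraries 35 lay above the highest control. The log2 change was 1.46 ± 0.05 (SE), with an adjusted p of 3.85e-27. Cpt2 (chr4:107903981-107923610, minus strand), the partner on the inner membrane, ran from 95.8 to 173 CPM with a median of 137 in controls and from 106 to 326 with a median of 252 in fasted livers. In 6 of the 36 fasted libraries it did not exceed the highest control, and the log2 change of 0.77 ± 0.05 came to 1.70-fold.

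Of the acyl-CoA dehydrogenases, the medium-chain enzyme Acadm (chr3:153922357-153944632, minus strand) changed the most, from a median of 219 CPM (169.7 to 293) in controls to 547 (217 to 818) in fasted livers, a log2 change of 1.19 ± 0.05. The long-chain enzyme Acadl (chr1:66830839-66863277, minus strand) went from 148 (119.5 to 225) to 303 (151 to 447), a log2 change of 0.92 ± 0.04. The very-long-chain enzyme Acadvl (chr11:70010183-70015411, minus strand) went from 292 (224 to 338) to 455 (241 to 546), and its log2 change of 0.59 ± 0.03 was the smallest of the 10. Etfdh (chr3:79603788-79629500, minus strand), which receives the electrons of all of them, went from 223 (170.0 to 283) to 463 (184 to 549), a log2 change of 0.89 ± 0.04. Between 29 and 32 of the 36 fasted libraries exceeded the highest control in each of these 4 genes, and the libraries that did not were mostly those of CT12 and CT16.

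Hadha (chr5:30118304-30155162, minus strand), the alpha subunit of the trifunctional protein, had a median of 347 CPM in controls (288 to 445) and 617 in fasted livers (327 to 767), a log2 change of 0.72 ± 0.04. Hadhb (chr5:30155248-30184593, plus strand), the beta subunit, went from 118 (94.4 to 159) to 259 (113 to 320), a log2 change of 0.95 ± 0.04. Both subunits moved up, and the beta subunit by more. Eci1 (chr17:24426641-24439348, plus strand), the isomerase, went from 89.999 (51.2 to 119) to 159 (57.3 to 212), and Decr1 (chr4:15917240-15945507, minus strand), the dienoyl-CoA reductase, from 139 (73.0 to 205) to 261 (116 to 331). These auxiliary enzymes changed by 0.75 ± 0.06 and 0.75 ± 0.05 on the log2 scale, about 1.69-fold each.

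**Figure D1:**
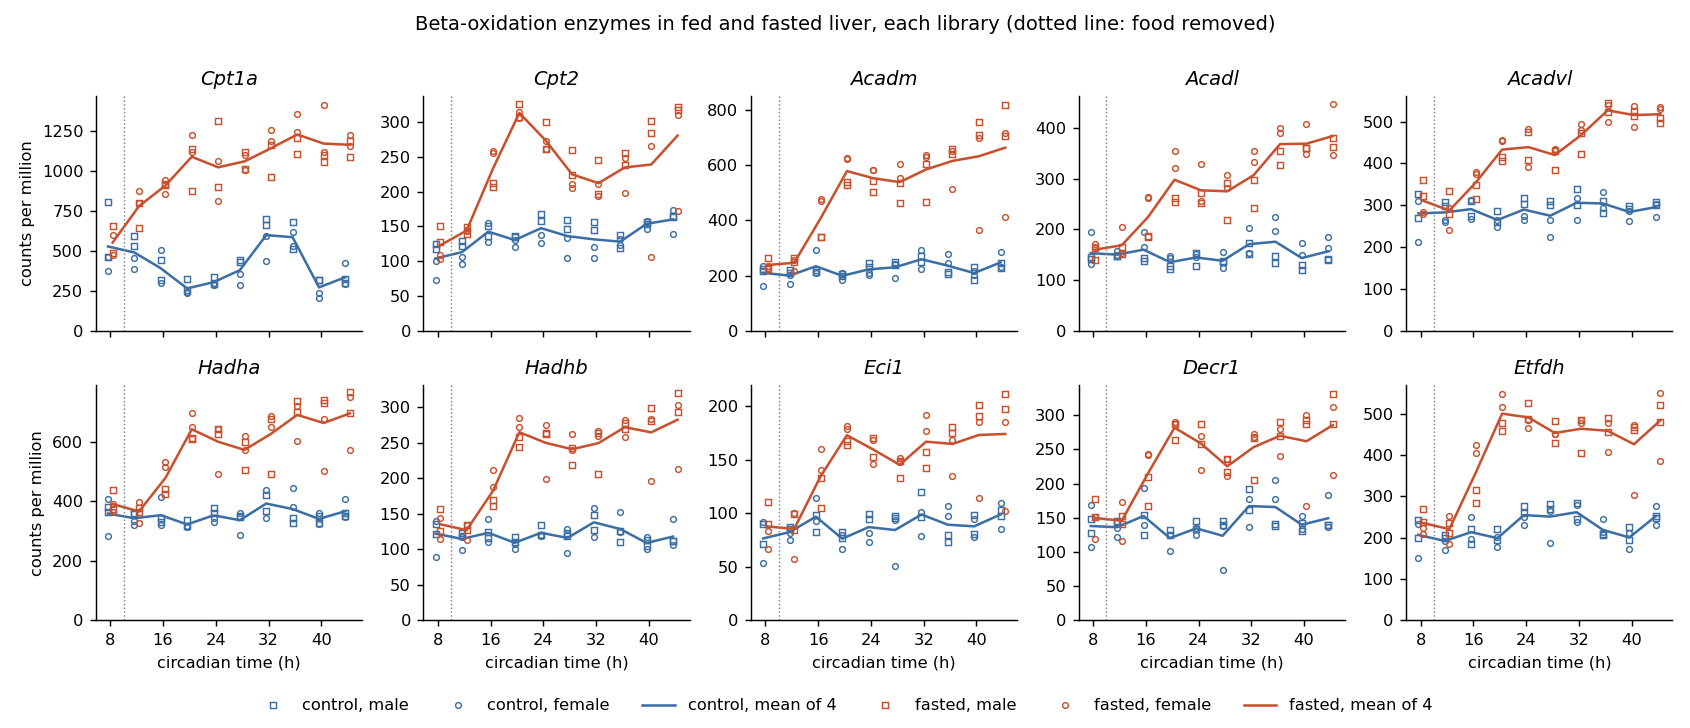
CPM of each of the 10 enzymes against circadian time in hours; each symbol is 1 library (squares males, circles females), lines join the means of 4 control (blue) or 4 fasted (red) libraries, and the dotted line marks the removal of food at CT10. The treatments overlap at CT8 in every panel and lie apart from CT20 to CT36 in every panel, with 1 low fasted library of Cpt2 at CT40 and another at CT44.

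The fasted and control means at each time asked when the enzymes parted. At CT8, before food was removed, no enzyme was called (0.118% of all genes were called higher in the mice labelled fasted), and in none did the 4 fasted lie above the 4 control libraries (1.13% of genes did). The 10 fasted-minus-control values at CT8 were all above 0, between 0.07 and 0.25 on the log2 scale, with standard errors of 0.09 to 0.17, and without female replicate 1 of each group 6 of them were called at CT8 (Cpt2, Acadm, Acadvl, Eci1, Decr1 and Etfdh, at 0.29 to 0.48). Without the 4 libraries farthest from their group means over all genes, of which 1 is a CT8 control rich in ribosomal RNA, the 10 values lay between -0.06 (Acadl) and 0.15 (Cpt2), and none was called. At CT12, 2 h after food removal, Cpt1a alone was called (0.920% of all genes), with 646 to 872 CPM in the 4 fasted and 387 to 591 in the 4 control libraries. Its log2 change was 0.68 ± 0.16 with an adjusted p of 0.0124, and the call was lost with each of the 4 replicate numbers left out (adjusted p 0.0572 to 0.292) and with only the 8 libraries of that time fitted (0.111). Cpt2 was called without the 4 farthest libraries (0.36, adjusted p 0.0113) and without female replicate 2 (0.40, 0.0318), and Acadm without female replicate 2 (0.43, 0.0283). Cpt1a and Cpt2 were the 2 enzymes whose fasted libraries all lay above the controls at that time (3.11% of genes).

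At CT16, after 6 h, all 10 enzymes had risen (11.5% of all genes), but with male replicate 1 left out 3 were called (Cpt1a, Acadm and Etfdh) and with male replicate 2 left out 4, Cpt2 besides. Of the 10, 7 had no overlap between the 4 fasted and the 4 control libraries (9.57% of genes), the exceptions being Acadl, Eci1 and Decr1. The smallest change then was that of Acadvl, 0.28 ± 0.09 (call also lost without female replicate 2, with no filter on low counts and with only the 8 libraries of that time), and the largest that of Cpt1a, 1.22 ± 0.16. In Acadm the fasted males were at 340.3 and 340.1 CPM and the fasted females at 476 and 471, over controls of 209 to 293. At CT20, after 10 h, all 10 were called (17.5%) and all 10 groups were separate (15.0%). Cpt1a stood at 877, 1136, 1225 and 1119 CPM in fasted livers over 326, 253, 243 and 239 in controls (male 1, male 2, female 1, female 2), a log2 change of 2.04 ± 0.16. The lowest fasted library was thus more than 551 CPM above the highest control.

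The largest estimate fell on CT20 for 6 of the 10, Cpt2 (1.26), Hadha (0.99), Hadhb (1.28), Eci1 (1.18), Decr1 (1.23) and Etfdh (1.33, log2), and on CT40 for Cpt1a, Acadm, Acadl and Acadvl. For several enzymes another time came within the standard error of the largest. These were CT40 for Hadha (0.95) and Hadhb (1.27), and CT20 for Cpt1a (2.04 against 2.13 at CT40) and Acadm (1.53 against 1.58). For Acadl (1.30 against 1.37) and Acadvl (0.81 against 0.86) it was CT44. Without the 4 farthest libraries the CT40 values of Hadha (1.05) and Hadhb (1.37) exceeded their CT20 values. All 10 were called at CT24 (12.2% of genes), CT28 (9.88%), CT32 (8.40%), CT36 (12.8%), CT40 (18.7%) and CT44 (18.7%). At CT32, 6 were called without male replicate 1 (not Cpt2, Hadha, Eci1 and Decr1) and 8 without male replicate 2. Single calls were lost at CT28 (Cpt2 without male replicate 1, Eci1 without male replicate 2) and CT36 (Decr1 without male replicate 1). At CT40 Cpt2 lost its call without male replicate 1 (adjusted p 0.0602), male replicate 2 (0.066) or female replicate 1 (0.128, at a log2 change of 0.18), and with only the 8 libraries of that time (0.132). The 4 fasted libraries lay above the 4 controls in all 10 at CT24 (9.97% of genes), CT28 (9.52%), CT32 (9.32%) and CT36 (11.1%), in 9 at CT40 (12.5%), without Cpt2, and in 8 at CT44 (13.9%), without Cpt2 and Eci1. Summed over the 10 enzymes, controls held 1822 ± 87.3 CPM at CT20 (SD, n = 4) and 2525 ± 310.2 at CT32, the lowest and highest of their 10 means, and fasted livers rose from 2572 ± 140.1 at CT12 to 4574 ± 363 at CT20 and 4931 ± 522 at CT44.

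**Figure D2:**
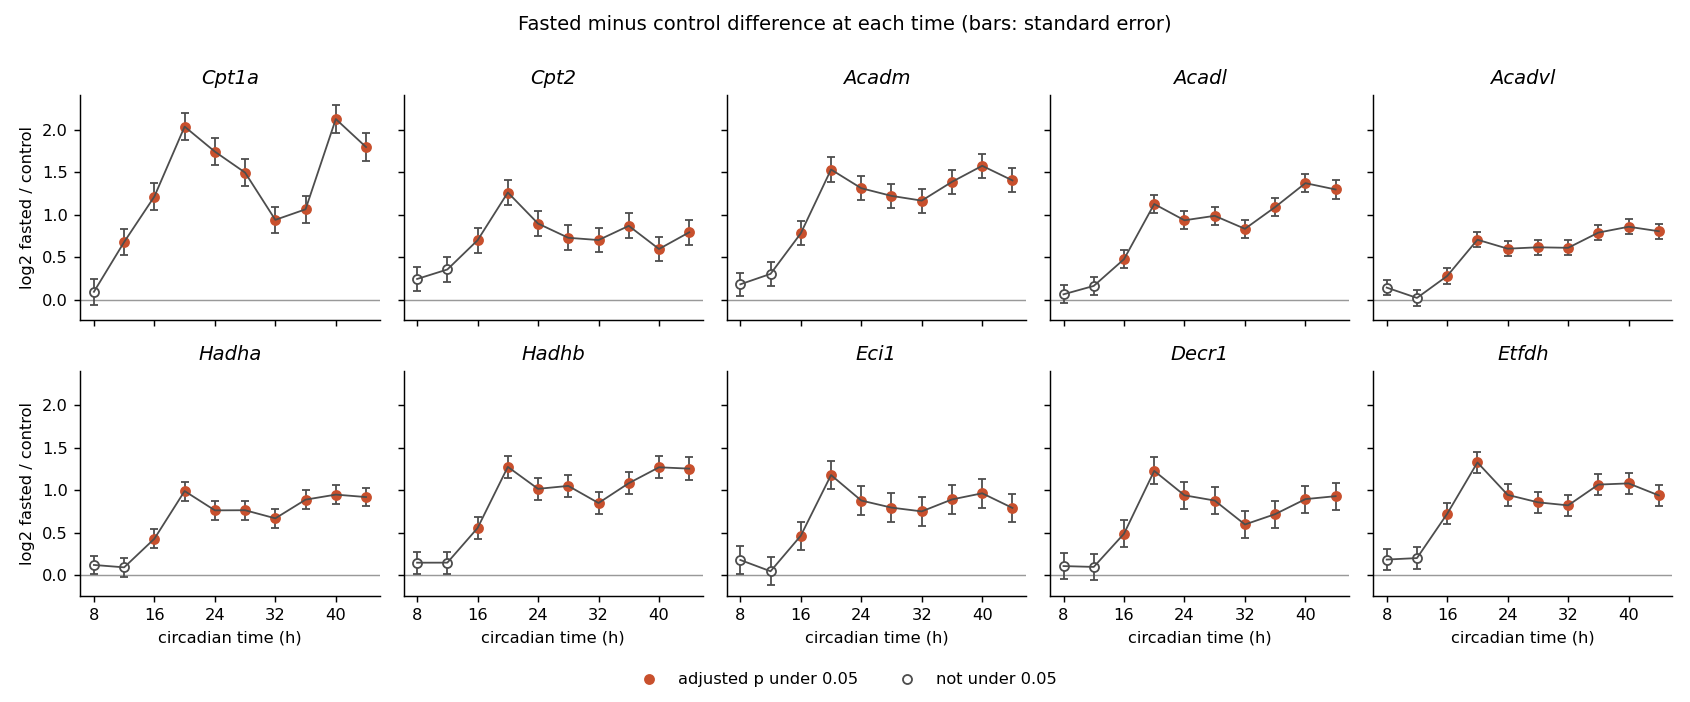
Log2 ratio of fasted to control for each enzyme against circadian time in hours, with the standard error as bars and filled points where the adjusted p was under 0.05. All points from CT16 on are filled, and the Cpt1a curve falls from 2.04 at CT20 to 0.94 at CT32 and returns to 2.13 at CT40.

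The size of the fasting effect changed over the 9 times in all 10 enzymes, where 33.7% of all genes tested were called (joint F test). The adjusted p ran from 2.65e-07 for Acadl to 0.0398 for Cpt2. With male replicate 1 left out 3 of the 10 stayed called and with male replicate 2 left out 2, and Cpt1a and Acadl were among them both times. Cpt1a moved the most, between 0.68 at CT12 and 2.13 at CT40, with a low of 0.94 ± 0.16 at CT32 between its high values. In the libraries, that low came with a rise in the controls: Cpt1a stood at 664, 701, 594 and 436 CPM in the CT32 controls and at 1163, 962, 1187 and 1257 in the fasted livers. At CT40, 8 h later, the controls were at 321, 321, 205 and 239, and the fasted livers at 1058, 1100, 1412 and 1117. The fasted libraries of the 2 times overlapped, and the control libraries did not.

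The effect after 26 to 34 h without food was set against that after 2 to 10 h at the same phase of the cycle (CT36, CT40 and CT44 against CT12, CT16 and CT20). Averaged over these phases, it was larger on the second day in 7 of the 10 enzymes, where 9.91% of all genes were called in that direction. Acadl grew the most, by 0.66 ± 0.09 on the log2 scale (adjusted p 3.37e-07), then Acadm by 0.58 ± 0.11, Hadhb by 0.54 ± 0.11, Acadvl by 0.48 ± 0.07, Hadha by 0.42 ± 0.09, Cpt1a by 0.35 ± 0.13 and Etfdh by 0.28 ± 0.10. Cpt2 gave -0.02 ± 0.12, Decr1 0.24 ± 0.13 (adjusted p 0.181) and Eci1 0.32 ± 0.14 (adjusted p 0.0891). Among the 7 called, the CT44 effect was smaller than that of CT20 in Cpt1a (1.80 against 2.04) and Acadm (1.41 against 1.53). The same held for Hadha (0.92 against 0.99), Hadhb (1.26 against 1.28) and Etfdh (0.94 against 1.33). In Acadl (1.30 against 1.13) and Acadvl (0.81 against 0.71) the CT44 effect was larger. Without male replicate 1 of each group 2 stayed called (Acadl and Acadvl) and without male replicate 2 there were 4. Without the pair CT36 and CT12, 2 of the 10 stayed called, Acadl and Acadvl, and the value of Etfdh turned to -0.02 (adjusted p 0.984). Without CT40 and CT16, Cpt1a stood at 0.07 (adjusted p 0.85), and its call was also lost with each of the 4 replicate numbers left out. Eci1 and Decr1 were called without CT44 and CT20 (0.67 and 0.51) and without the 4 farthest libraries (0.44 and 0.34).

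In fed livers in constant darkness 3 of the 10 enzymes followed a 24 h cosine, where 41.8% of the 20114 genes tested in the 40 controls did. Cpt1a had a peak-to-trough ratio of 2.01 and a fitted peak at CT9.29, late in the subjective day (adjusted p 1.79e-07). Its control libraries ran from 377 to 808 CPM at CT8 and from 239 to 326 at CT20, then from 436 to 701 at CT32 and from 205 to 321 at CT40. The groups of CT20 and CT40 lay wholly below those of CT8 and CT32. Cpt2 had a ratio of 1.29 with a peak at CT20.6, in the subjective night (adjusted p 0.00102), and Etfdh one of 1.26 with a peak at CT2.37 (adjusted p 0.0137). The call for Etfdh was lost without male replicate 1, male replicate 2 or female replicate 1. The other 7 were not called, with fitted ratios of 1.05 (Acadvl) to 1.19 (Decr1), and Acadl, at an adjusted p of 0.0801, was called without the control library rich in ribosomal RNA (adjusted p 0.0449).

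The 24 h component differed between fasted and control livers in 4 of the 10, Cpt1a, Acadl, Hadhb and Decr1, where 23.2% of 20965 genes were called (libraries of the 9 times after food removal, each treatment also having its own straight trend). For Cpt1a the fitted peak-to-trough difference was 1.04 on the log2 scale in controls and 0.08 in fasted livers (adjusted p 5.07e-06), and this call held with each replicate number left out. For Decr1 it was 0.28 with a peak at CT11.3 in controls and 0.35 with a peak at CT22.3 in fasted livers (adjusted p 0.0142). For Hadhb it was 0.18 at CT7.33 against 0.40 at CT23.8 (adjusted p 0.0199), and for Acadl 0.22 at CT10.7 against 0.19 at CT21.3 (adjusted p 0.027). In Acadl, Hadhb and Decr1 the lowest fasted means were those of CT12 and CT16, right after food removal, and a fast that began once and a 24 h cycle cannot be told apart in these fits. The fasted peaks of all 10 fits lay between CT21.3 and CT1.47. Leaving out the linear change over time left Cpt1a and Decr1 called, and leaving out the 4 libraries farthest from their groups gave 8 of 10. Without male replicate 1, or male replicate 2, Cpt1a alone stayed called, and without female replicate 2 there were 2.

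**Figure D3:**
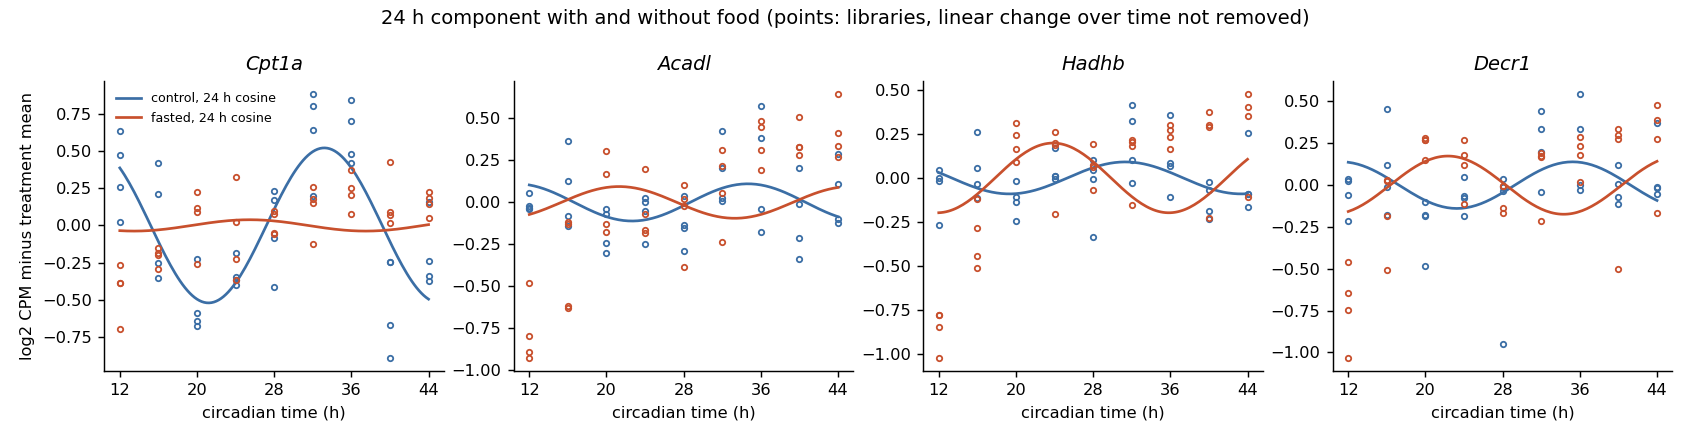
Log2 CPM of Cpt1a, Acadl, Hadhb and Decr1 minus the mean of each treatment, against circadian time from CT12 to CT44, with the fitted 24 h cosine of control (blue) and fasted (red) livers; points are libraries, with the linear change over time not removed. The control curve of Cpt1a spans 1.04 from peak to trough and the fasted curve 0.08, and in Acadl, Hadhb and Decr1 the fasted curve peaks between CT21.3 and CT23.8.

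All 10 enzymes rose in each sex taken alone. The mean fasting effect differed between the sexes in 1 of the 10, where 5.35% of all genes were larger in females: Cpt1a rose by 1.61 ± 0.07 on the log2 scale in females and 1.31 ± 0.07 in males, a difference of 0.30 ± 0.10 (adjusted p 0.0443). That call was lost with each of the 4 replicate numbers left out, at adjusted p of 0.0616 to 0.236, with the difference between 0.27 and 0.35. Acadvl differed by 0.16 ± 0.06 (adjusted p 0.0735). For the other 8 the difference lay between -0.02 (Hadha and Decr1) and 0.09 (Etfdh), and its 95% interval reached no further than a ratio of 0.857 to 1.19.

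In fed livers 3 of the 10 were lower in females (18.6% of all genes) and 1 was higher (20.6%), over the 10 times. The log2 difference, female minus male, was -0.25 ± 0.07 for Cpt1a (adjusted p 0.00313), -0.21 ± 0.07 for Cpt2 (adjusted p 0.00766) and -0.13 ± 0.04 for Acadvl (adjusted p 0.0106). Acadl was higher in females by 0.23 ± 0.05 (adjusted p 0.000105), as in the CT44 controls, where the females stood at 184 and 163 CPM and the males at 139 and 141. With a term for the replicate number in each sex, the fit compared the level of replicate 1 between the sexes and paired no animals. Acadl alone was called in it, and Cpt1a stood at -0.16 (adjusted p 0.163), Cpt2 at -0.16 (0.133) and Acadvl at -0.09 (0.158). With 1 replicate number left out 2 (male 1), 1 (male 2), 6 (female 1) and 2 (female 2) were called, Acadl each time.

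**Figure D4:**
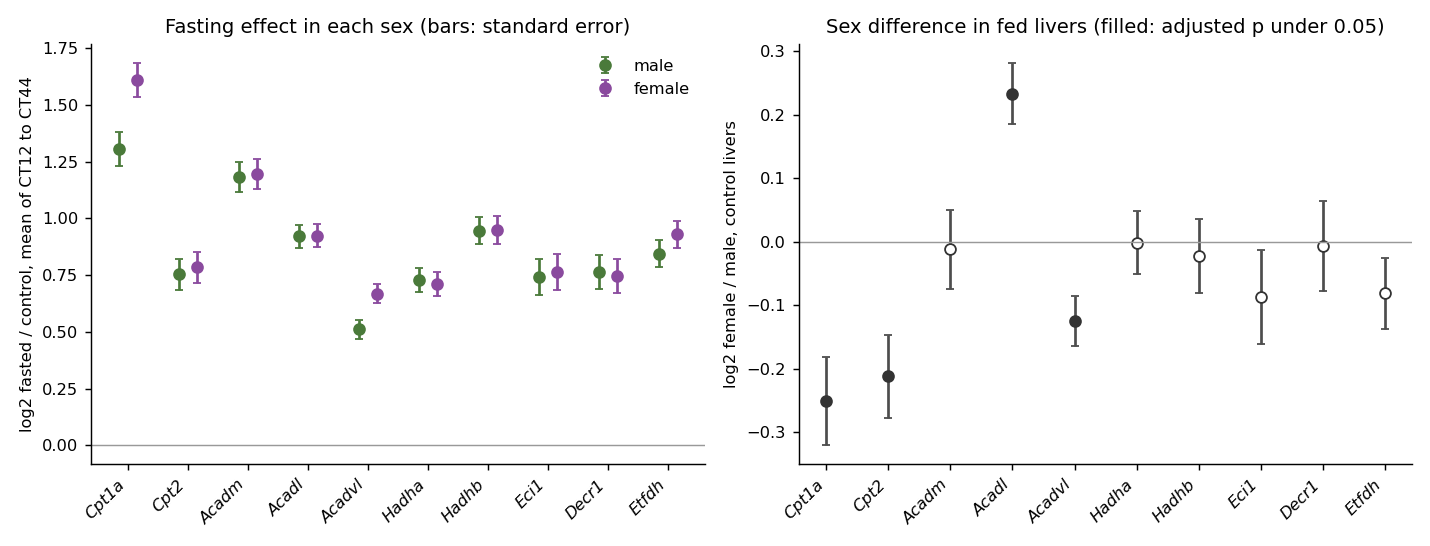
Left, log2 ratio of fasted to control over CT12 to CT44 in males (green) and females (purple) for each enzyme, with the standard error; right, log2 ratio of females to males in control livers over CT8 to CT44, filled where the adjusted p was under 0.05. The sexes lie apart for Cpt1a at left (1.31 and 1.61), and Acadl is the one filled point above 0 at right (0.23).

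Single mice stood apart from their groups in several enzymes at once. In fasted CT40 female 2 Cpt2 was at 106 CPM and in the other 3 libraries of the group at 265 to 302, Acadm at 366 against 699 to 754, and Decr1 at 168 against 287 to 299.7. Cpt1a, at 1117 against 1058 to 1412, was within the range of the others. In fasted CT44 female 1 Cpt2 was at 172 against 311 to 322, Acadm at 411 against 705 to 818 and Eci1 at 102 against 185 to 212, while Cpt1a at 1223 was above the other 3. The same pair of libraries were low in Ppara, the gene of PPAR alpha, at 61.9 against 245 to 267 and at 112 against 203 to 241, and in Fgf21, at 0.700 against 9.58 to 15.9 and at 4.31 against 17.4 to 24.03. They were high in Ppargc1a, a coactivator gene, at 91.3 against 42.0 to 45.3 and at 149.6 against 33.4 to 62.0, and in Pdk4, at 373 against 74.8 to 121 and at 333 against 190.0 to 328.

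These 2 libraries held 26820667 and 30551612 counts, with 0.0597% and 0.0577% in Rn18s-rs5. They were the farthest from their group means over all genes, after the control library rich in ribosomal RNA. Without them, that control and fasted CT40 male 1, the next farthest, the CT40 effect of Cpt2 went from 0.60 to 0.88 and that of Acadm from 1.58 to 1.80, and all 10 enzymes were called at both times. Without female replicate 1 of each group, the CT40 effect of Cpt2 was 0.18 (adjusted p 0.128). Control CT28 female 2 was below the other 3 of its group in all 10 enzymes, with Decr1 at 73.0 against 137 to 145 CPM and Eci1 at 51.2 against 93.6 to 97.6, and Ppara there was at 83.5 against 133 to 151. Fasted CT32 male 2 was below its group in 9. After group and sex means were taken out, the 45 pairs of enzymes correlated across the 80 libraries with a median r of 0.77, from 0.23 (Cpt1a and Eci1) to 0.95 (Decr1 and Etfdh). The 80 libraries share their normalisation, and the low libraries above enter these values.

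Per kilobase of annotated exon (all GENCODE M21 transcripts of a gene joined, a rough scale where long transcripts are rare), the fed liver held Acadvl highest, at 107 ± 9.33 CPM per kilobase (SD over 36 libraries), then Acadl at 76.2 ± 12.0. Acadm at 57.8 ± 7.86, Cpt2 at 57.8 ± 8.17, Cpt1a at 52.7 ± 18.2, Eci1 at 41.9 ± 6.56, Hadha at 40.6 ± 4.04 and Decr1 at 36.9 ± 6.56 each differed from the next by less than the larger of their SDs. Etfdh followed at 30.2 ± 4.54 and Hadhb at 18.2 ± 2.26. In fasted liver the highest were Acadvl at 164 ± 30.1, Acadl at 148 ± 38.0, Cpt1a at 139 ± 22.9, Acadm at 137 ± 38.8 and Cpt2 at 100.2 ± 24.8. Each of these likewise differed from the next by less than the larger of their SDs. The SDs cover CT12 to CT44 and both sexes, so they include the change over time. The genes were not compared library by library, so this order was not tested.

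The ratio of Hadhb to Hadha, the 2 subunits of one protein, was higher in fasted liver. It ran from 0.306 to 0.368 in controls with a median of 0.343, and from 0.336 to 0.434 in fasted livers with a median of 0.402 (ratio of CPM). The mean log2 ratio was higher in fasted livers by 0.23 (permutation test, two-sided, n = 36 in each group, p = 2e-05, the smallest that 100000 resamples can give), and it was higher at 9 of 9 times, by 0.06 to 0.34. The 4 fasted libraries lay above the 4 controls at 8 of the 9 times. This comparison was made after the 2 genes' values had been seen. Hadhb also has a pseudogene, Hadhb-ps, whose counts came to 20.1% to 24.6% of those of Hadhb in every library, so reads of one may be counted for the other. Summing both gave a fasting difference of 0.94 against 0.95 for Hadhb alone. Acadvl, Hadha and Etfdh share exon bases with Dvl2, Garem2 and 4930579G24Rik on the other strand, and these held at most 3.74%, 0.0170% and 1.35% of their counts.

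Over the 20 means of treatment and time, the genes whose pattern was most like the average of the 10 enzymes included Hadhb-ps, Agpat3, Hsd17b11, Retsat, Cyp4a14, Pctp and Slc27a1, with Pearson r of 0.98 to 0.99. The single most similar gene was another of the 10 for 3 of them: Hadhb for Acadm and for Hadha, and Acadvl for Acadl. It was Ech1 for Acadvl, Hadhb-ps for Hadhb, Acot12 for Cpt1a, Acot1 for Cpt2, Hsd17b4 for Eci1, Vwa8 for Decr1 and Acat1 for Etfdh, with r of 0.98 to 1.00. Cpt1a and Cpt2 were the least alike of the 10, with an r of 0.74. These correlations are descriptions over 20 means that share the fasting difference.

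The listed partner genes moved less evenly than the 10. Both lists were chosen with earlier results of these data known, and the part of that choice in the contrast was not tested. Of 16 listed partners 12 rose, 3 fell and 1 was not called, with a median log2 change of 0.22. Slc25a20, the carrier that exchanges acylcarnitine for carnitine between CPT1A and CPT2, rose by 1.02 ± 0.05, from a median of 93.4 to 188 CPM. Crat, which makes acetylcarnitine, rose by 1.61 ± 0.07, Hsd17b10, a short-chain dehydrogenase, by 1.42 ± 0.05, and Eci2, a second isomerase, by 1.11 ± 0.06. Acad11, an acyl-CoA dehydrogenase, rose by 0.87 ± 0.04. Cpt1b, the muscle form, rose by 1.505 ± 0.12 but stayed at or below 2.71 CPM in every library.

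Among the other partners, Acads rose by 0.17 ± 0.03, Hadh by 0.17 ± 0.06, Acaa2, the thiolase, by 0.16 ± 0.04, Etfa by 0.14 ± 0.03, Etfb by 0.36 ± 0.03 and Acad12 by 0.27 ± 0.06. Echs1, the enoyl-CoA hydratase, fell by 0.12 ± 0.03, Acad9, a complex I assembly factor of the dehydrogenase family, fell by 0.41 ± 0.04, and Cpt1c, the brain form, fell by 0.27 ± 0.11 from under 1 CPM. Acad10 was at 0.09 ± 0.05 (adjusted p 0.0999).

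Of 7 regulators 5 rose and 2 fell over the mean of the times, with a median of 0.56. At the single times from CT12 on between 1 (CT12 and CT28) and 5 (CT20 and CT40) rose, and their median was 0.01 at CT28 and -0.13 at CT32. The 2 acetyl-CoA carboxylases, which make the malonyl-CoA that inhibits CPT1A, both fell over the mean of the times. Acaca fell by 1.38 ± 0.07 (median 173 to 67.7 CPM) and Acacb by 0.56 ± 0.11 (278 to 200.1). Acacb was not lowered throughout: its log2 change was -0.48 at CT12, -0.19 at CT16, -0.03 at CT20 and 0.01 at CT24. From CT28 to CT40 it lay between -0.91 and -1.17, and at CT44 it was -0.21. Mlycd, which removes malonyl-CoA, rose by 0.56 ± 0.03. Ppara rose by 0.64 ± 0.07, its partner Rxra by 0.14 ± 0.03, Ppargc1a by 1.73 ± 0.12 and Ppargc1b by 1.00 ± 0.08. Of 7 peroxisomal oxidation genes 6 rose (median 0.78), led by Ehhadh at 2.43 ± 0.08 and Acaa1a at 0.91 ± 0.04, and Scp2 was not called. Over all genes tested 29.5% rose and 32.9% fell.

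**Figure D5:**
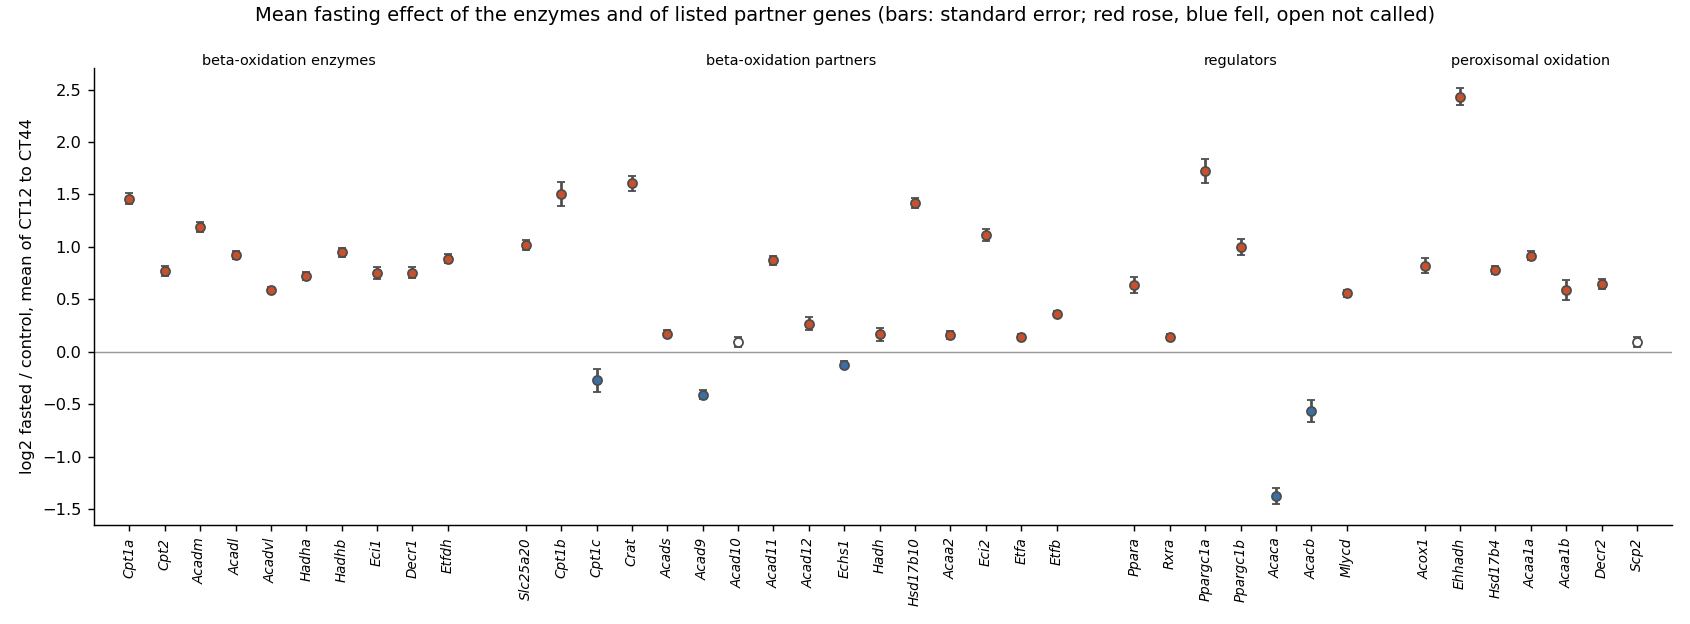
Mean log2 ratio of fasted to control over CT12 to CT44 for the 10 enzymes and for the listed partner, regulator and peroxisomal oxidation genes, with the standard error; red points rose, blue fell and open points were not called. All 10 enzymes lie between 0.59 and 1.46, while the regulators run from -1.38 (Acaca) to 1.73 (Ppargc1a).

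The exon table, which splits each gene into bins given by number without positions, asked whether any stretch of an enzyme's RNA changed its share of the gene's counts. In 7 of the 10 at least 1 bin was called, where 11.9% of 13233 genes were (edgeR diffSpliceDGE, Simes' method, 72 libraries of CT12 to CT44), and Cpt2, Acadl and Eci1 were not called (adjusted p 1.00, 1.00 and 0.276). In each of the 7 the bin with the smallest p held under 1.4% of the gene's counts on average. Hadha had the clearest case, bin 40, with 0.172% ± 0.033 of its counts in controls and 0.370% ± 0.11 in fasted livers (SD, n = 36), a log2 difference of 0.74 relative to the rest of the gene.

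In the other genes the shares overlapped more. In Acadm bin 31 the share was 0.318% ± 0.056 in controls and 0.195% ± 0.060 in fasted livers, and in Etfdh bin 14 it was 1.00% ± 0.17 and 1.35% ± 0.40. Bin 11 of Decr1 held 0.111% ± 0.058 and 0.268% ± 0.21, bin 6 of Acadvl 0.0993% ± 0.032 and 0.143% ± 0.049, and bin 4 of Hadhb 0.143% ± 0.055 and 0.09999% ± 0.039. Cpt1a bin 4 rested on a few libraries, with mean counts of 6.28 in controls and 56.4 in fasted livers, median shares of 0.00905% and 0.0217% and highest shares of 0.550% and 0.712%. With at least 10 counts asked in every library, Cpt1a and Decr1 were no longer called and 5 were. Without CT40 and with 1 replicate number left out at a time, 6 to 8 of the 10 were called. Hadhb lost its call without male replicate 2 (adjusted p 0.0587) or female replicate 2 (0.864), and Acadvl without female replicate 1 (0.125). Cpt2 became called without male replicate 1 (0.041).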

How the data were processed

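Poly(A) RNA of 80 mouse livers was sequenced as stranded paired-end libraries. The submitters' processing notes name Trimmomatic, HISAT2, DESeq2 and the build GRCm39, without versions. The counting tool, its strand setting and the annotation release are not given in the sources used here. The authors deposited raw counts per gene and per exon bin, which were used, and scaled counts, which were not used here. Positions and exon lengths came from GENCODE M21 on GRCm38, another build than that of the counts, so they place the genes and enter no test.

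Each of the 80 columns matched 1 title. Gene counts were tested with edgeR 4.0.16 in R 4.3.3 (quasi-likelihood test, trimmed mean of M values scaling, low counts filtered with filterByExpr) on 1 mean for each treatment, time and sex, over the 21187 of 78275 genes that passed. P-values were adjusted by Benjamini and Hochberg's method over all genes tested, with a threshold of 0.05. CPM were counts over the scaled library size, and log2 CPM used a prior count of 2. Rhythms were fitted as a 24 h cosine and sine in separate fits, in place of a mean for each time. These covered 20114 genes for the control rhythm and 20965 for the difference of rhythm between fasted and control. Exon bins were tested with diffSpliceDGE in the 72 libraries of CT12 to CT44 without sex, since 3 exon columns of fasted CT40 held counts closest to another library of their group. Scripts were tested on simulated counts. All libraries differed from each other by more than sampling noise (120 pairs within groups).

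Named were the 10 enzymes, all partners and regulators, the 2 largest rises of the peroxisomal list with its single gene not called, and the genes most alike in pattern; some genes chosen by these rules, and 2 further lists, are not reported here. The 10 enzymes and the lists were chosen with earlier results of these data known. Alternatives were DESeq2 1.42.0 size factors and Wald test, upper quartile scaling, limma 3.58.1 voom, other filters, a replicate block, and leaving out replicates, libraries or times. Those leaving out the 4 farthest libraries, CT40, fasted CT40 male 1 or a pair of times were chosen after seeing the data. Leaving out 1 replicate number left 1 mouse of its sex in each group, assumed to vary like the others. In the main gene fit the p-values rest on the spread between the 2 mice of each treatment, time and sex, shared over all groups. In the rhythm fits the spread also holds departures from the cosine. The permutation test of Hadhb to Hadha shuffled treatment over all times and both sexes, so its spread includes these. Counting error was small: each enzyme held at least 1140 counts in every library.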

Additional observations from a re-analysis of the deposited data

Results flagged for a closer look

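A Dixon test was made on each enzyme in each of the 20 groups of 4 libraries, 200 tests. In 28 of them 1 library lay far from the other 3. Chance marks about 1 in 20, so about 10, where tests are independent. These were not, since the enzymes share their libraries and correlate (median r 0.77). The 3 libraries named next held most of the 28. In fasted CT40 female 2 the low values were those of Cpt2 (6.73 log2 CPM), Acadm (8.51), Hadhb (7.62), Eci1 (6.84), Decr1 (7.39) and Etfdh (8.24). In fasted CT32 male 2 they were those of Acadm (8.87), Hadha (8.94), Hadhb (7.69), Decr1 (7.68) and Etfdh (8.66). In control CT28 female 2 they were those of Acadm (7.57), Hadha (8.17), Eci1 (5.68), Decr1 (6.19) and Etfdh (7.55).

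The other 12 were spread over the time course. Cpt2 was low in fasted CT44 female 1 (7.42 log2 CPM). Acadm was high in control CT16 female 1 (8.20) and low in fasted CT36 female 2 (9.01). Acadl was high in control CT12 female 2 (7.29), and Acadvl was low in control CT44 female 2 (8.09) and in fasted CT28 male 2 (8.58). Hadha was high in control CT20 male 1 (8.40) and low in fasted CT24 female 2 (8.94). Hadhb was high in control CT24 male 2 (7.07) and low in fasted CT24 female 2 (7.64). Decr1 was high in control CT44 female 1 (7.51) and low in fasted CT20 male 1 (8.04).

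Differences between groups of effects passed their tests in the reported fit. Females exceeded males in the fasting effect of Cpt1a, by 0.30 (log2). That call was lost with each of the 4 replicate numbers left out, without the 4 farthest libraries and at an adjusted p under 0.01. Averaged over the matched phases, the fasting effect was larger on the second day than on the first by 0.66 for Acadl, 0.58 for Acadm, 0.54 for Hadhb, 0.48 for Acadvl, 0.42 for Hadha, 0.35 for Cpt1a and 0.28 for Etfdh. Without CT36 and CT12 only the calls of Acadl and Acadvl stayed. Without CT40 and CT16 those of Cpt1a (adjusted p 0.85) and Etfdh (0.257) were lost.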

How the results depend on the processing

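The mean fasting effect was called in all 10 enzymes under each of the 20 alternatives run, and that of Cpt1a ranged from 1.31 to 1.61 on the log2 scale. Counts of enzymes called, by result, moved as follows, and the cause was not tested. Leaving out 1 replicate number at a time, the change over time was called in 2 to 10 (10 with all libraries), the difference between the days in 2 to 7 (7), the sex difference of the effect in 0 to 0 (1), the sex difference in controls in 1 to 6 (4), and the rhythm difference in 1 to 3 (4). Other counts of enzymes were 2 for the difference between the days without CT36 and CT12, 2 for the sex difference of the effect with DESeq2 size factors or a filter at 1 CPM, 0 at an adjusted p under 0.01 or without the 4 farthest libraries, 1 for the control rhythm with a ratio of at least 1.5, and for the rhythm difference 8 without the 4 farthest libraries, 2 without a linear change and 1 at an adjusted p under 0.01. The difference between the days of Etfdh reversed to -0.0153 without CT36 and CT12. Replicate numbers of the same sex did not pair the libraries: 1 of 20 correlations between same-numbered libraries passed 0.1. With a replicate block the sex difference in controls, there a comparison of replicate 1 of each sex, was called in 1 enzyme. The block moved no other count of enzymes by over 1.5 times. Of the single-enzyme values under the alternatives 2261 kept their side of the threshold, 118 were no longer called, 30 became called and 1 called value reversed. Changes of sign between values not called in either fit count among the 2261. Acadl at CT8, for example, went from 0.07 to -0.06 without the 4 farthest libraries. Over all genes tested, counts of calls that moved by over 1.5 times were, for the change over time, 1186 to 4297 (7130 in the reported fit), for the days 1449 to 2473 (4483), for the sex difference of the effect 238 to 1106 (2621), for the rhythm difference 2635 to 2720 (4858), for the control rhythm 3595 (8417), for exon bins 855 to 2415 (1574), for the mean with a change of at least 1.5 times 4359 (13233), at CT8 0 to 2123 (282) and at CT12 3 to 1158 (340). Counts at the single times from CT16 on fell to as few as 1198 (CT32, 3751). Each enzyme had at least 1140 counts in every library, its exon bins held fewer, and the part of depth in these results was not tested.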
